A study of Homo sapiens with 4 samples.

Results

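Long noncoding RNAs are transcripts that act as RNA rather than as templates for protein. The 8 described here, MALAT1, NEAT1, NORAD, KCNQ1OT1, MIAT, TUG1, PVT1 and CYTOR, were chosen by name, and their peaks were taken from the list that was deposited for a PRMT5 RNA immunoprecipitation (RIP) experiment. PRMT5 is an arginine methyltransferase that works with WDR77, and the RIP asked which RNAs it contacts in cells. The list held 18993 peaks under 8478 gene identifiers. Of the 8 RNAs, 4 had a peak (MALAT1 with 2, and NEAT1, NORAD and PVT1 with 1 each), which made 5 peaks in all. Genes without a peak are not in the list, so whether this share is high or low cannot be said.

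All libraries came from Jurkat, a leukemic human T cell line long established in culture, which had been stimulated with PHA, a plant lectin that activates T cells, for 48 h and crosslinked with UV light (264 nm and 400 mJ in the sample labels). The 2 PRMT5 RIP libraries held RNA recovered by FLAG immunoprecipitation, and the 2 input libraries held RNA of the same kind of lysate before it. The genotype of the cells and the construct that carried the FLAG tag are not given in the labels, and a mock immunoprecipitation was not analysed here. The deposited list gives 1 RPM value (reads scaled to library size, rounded to 0.01) per peak for PRMT5 RIP and 1 for input. No spread between replicates and no test could be given for any difference below, and the read depth is not known. Of 12 T cell marker genes, 10 had a peak, among them CD3D, CD3E, CD2 and LCK. PTPRC and TRBC1 had no listed peak under those names. Of 15 markers of other cell types 2 had a peak (CD79A and CSF1R). The share of all genes with a peak is not known, so neither count can be set against a background.

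As background, the 8 RNAs work in different places. MALAT1 lies in nuclear speckles, where splicing factors gather, and its 3′ end is made by cleavage upstream of a small tRNA-like RNA and is held by a triple helix. NEAT1 is the scaffold of paraspeckles, nuclear bodies built with the proteins NONO and SFPQ, and is made as a short and a long isoform from one start site. NORAD is a mostly cytoplasmic RNA, induced by DNA damage, that helps to keep the genome stable. PVT1 lies beside the MYC gene, KCNQ1OT1 is an imprinted transcript antisense to KCNQ1, and MIAT, TUG1 and CYTOR are spliced transcripts.

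NORAD was the RNA whose peak reached across its annotated start, so its sequence is shown there. The RefSeq sequence of chr20:36050911-36050992 (GRCh38.p14, minus strand) is printed 5′ to 3′, with the 32 bases upstream of the annotated start in lower case and the first 50 transcribed bases in capitals.
NORAD start: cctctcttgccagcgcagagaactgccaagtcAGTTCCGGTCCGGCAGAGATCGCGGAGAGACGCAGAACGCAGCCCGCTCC
Of the 50 transcribed bases, 68.0% were G or C. The median over 35116 RefSeq start windows was 60.0%, and 68.6% of the windows were lower than NORAD. The first 50 bases at the 2 listed starts of MALAT1, where no peak lay, had 66.0% and 70.0% G or C.

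NORAD (ENSG00000260032.2, chr20:36045618-36050960, minus strand, 5343 nt) had the highest RPM of the 4 RNAs in both fractions, though not the highest per length in input. Its peak of 650 nt (chr20:36050343-36050992) ran from 32 nt upstream of the annotated start to nucleotide 618, and so covered 11.6% of the gene. PRMT5 RIP gave 41.88 RPM there and input gave 11.14 RPM, a ratio of 3.76 and a log2 ratio of 1.91. The RIP level was above that of 92.3% of all listed peaks and the ratio above that of 83.1%. The remaining 4725 nt toward the 3′ end held no listed peak. Beside peaks of like input the ratio of NORAD was high: among the 1273 peaks with an input of 7.43 to 16.7 RPM, the median log2 ratio was 0.72, and 95.4% of them were below NORAD.

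MALAT1 (ENSG00000251562.10, chr11:65497738-65506516, plus strand, 8779 nt) had 2 peaks that differed in their ratio. Positions are counted from the outer of its 2 listed starts, chr11:65497738. The other start, chr11:65499045, also lies upstream of both peaks, and positions counted from it would be smaller. The 5′ peak of 250 nt (chr11:65500513-65500762) covered nucleotides 2776 to 3025 and had 3.89 RPM in RIP and 1.15 RPM in input, a log2 ratio of 1.75. The 3′ peak of 75 nt (chr11:65505206-65505280) covered nucleotides 7469 to 7543, ending 1236 nt before the annotated 3′ end. It had 1.99 RPM in RIP and 1.48 RPM in input, a log2 ratio of 0.42. The 5′ peak was thus 3.38 times input and the 3′ peak 1.34 times, and rounding of the RPM values could move these ratios by little (3.36 to 3.40 and 1.34 to 1.35). Per length the order of the levels was the other way round, with 15.6 RPM per kb of peak in RIP for the 5′ peak and 26.5 for the 3′ peak. In input the 3′ peak was also the higher, at 19.7 RPM per kb against 4.60. The 2 peaks together covered 3.70% of the gene, and summed they gave 5.88 RPM in RIP against 2.63 RPM in input, or 2.24 times (log2 ratio 1.16).

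Both MALAT1 peaks coincided with peaks on the minus strand, assigned to TALAM1, the RNA antisense to MALAT1. The minus-strand peak at chr11:65500512-65500761 shared 249 nt with the 5′ peak and had 3.91 RPM in RIP and 1.16 RPM in input. The one at chr11:65505212-65505261 lay wholly inside the 3′ peak, sharing its 50 nt, with 1.30 RPM and 0.96 RPM. Per length, RIP levels on the 2 strands differed by 0.51% at the 5′ peak and by 2.05% at the 3′ peak, and the log2 ratios were 1.75 and 1.74 at the former and 0.42 and 0.43 at the latter. The library kit keeps strand, but how strand was used in counting is not given in the sources used here, so MALAT1 and TALAM1 reads cannot be told apart in these values. In the whole list, 18.1% of peaks lay across from an opposite-strand peak. The peaks of NEAT1, NORAD and PVT1 did not.

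NEAT1 (ENSG00000245532.11, chr11:65422798-65445540, 22743 nt) had the highest ratio of the 4 RNAs and one of the lowest levels. Its peak of 125 nt (chr11:65424399-65424523, plus strand) covered nucleotides 1602 to 1726, near the 5′ end that the short and long isoforms share, and 0.55% of the gene. PRMT5 RIP gave 0.84 RPM and input 0.07 RPM, a ratio of 12 with a range of 11.1 to 13.0 from rounding alone, and a log2 ratio of 3.41. This ranked 206 among the 18993 peaks. The input value was above that of 7.68% of peaks, and the number of reads behind it is not known. Nearly all listed peaks with so little input stood well above it: among the 1697 peaks with an input of 0.047 to 0.105 RPM, 98.2% were at least 2-fold above input, with a median ratio of 3.20, and 97.8% of them were below NEAT1. The 21017 nt downstream of the peak, the stretch made in the long isoform included, held no listed peak.

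PVT1 (ENSG00000249859.14, chr8:127794524-128101256, 306733 nt) had a peak at the very start of its gene. The peak of 75 nt (chr8:127794562-127794636, plus strand) covered nucleotides 39 to 113, and 0.024% of the unspliced span. RIP gave 0.51 RPM and input 0.10 RPM, a ratio of 5.10 (4.81 to 5.42 from rounding) and a log2 ratio of 2.24. Among the 2102 peaks with an input of 0.067 to 0.150 RPM the median log2 ratio was 1.34, 81.8% were at least 2-fold above input, and 85.4% were below PVT1.

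**Figure D1:**
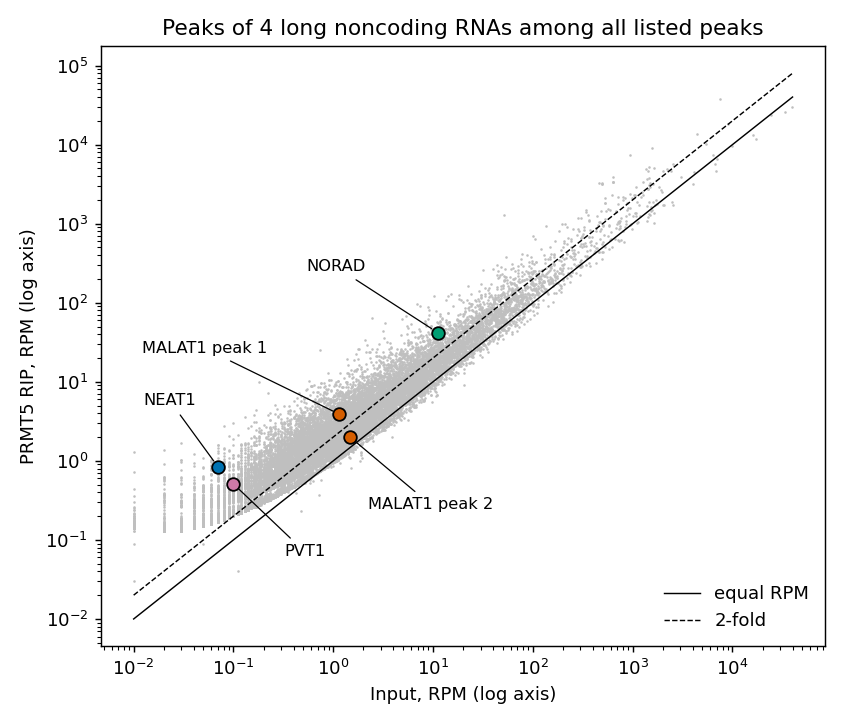
RPM in PRMT5 RIP (vertical) against RPM in input (horizontal), both on log axes, for all listed peaks (grey; peaks with a 0 in either value are left out) and the 5 peaks of MALAT1, NEAT1, NORAD and PVT1 (coloured). The solid line marks equal values and the dashed line a 2-fold ratio, and the 3′ MALAT1 peak (peak 2), at 1.99 and 1.48 RPM, is the one coloured point below the dashed line.

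By the log2 ratio of RIP over input, the peaks ran from NEAT1 (3.41) through PVT1 (2.24), NORAD (1.91) and the 5′ MALAT1 peak (1.75) down to the 3′ MALAT1 peak (0.42). With 1 pooled value a group, neighbours in this order have no replicate check. Rounding alone left the order as it was. So did the peak caller's own log2 fold change, at 4.38, 3.26, 2.67, 2.59 and 1.19. The caller's FDR was between 2.47e-15 and 2.20e-10 at the 5 peaks, the 3′ MALAT1 peak included. All listed peaks were called for RIP over input, so these FDR values give no separate backing to the order or the ratios. The pseudocount did turn the order: with 0.1 NORAD (1.90) and the 5′ MALAT1 peak (1.67) stood above PVT1 (1.61). With 1, NORAD was first (1.82), the 5′ MALAT1 peak stood above NEAT1 (0.78), and PVT1 was at 0.46. At least 2-fold above input were 4 of the 5 peaks, beside 55.7% of all listed peaks (10579 of 18993), and the median log2 ratio of the 5 was 1.91 beside 1.10 for the whole list. Summed over peaks, 4 of the 4 genes with a peak were at least 2-fold above input, beside 62.3% of all identifiers (5284 of 8478). The list holds peaks called for RIP over input, so these shares say nothing of the 4 RNAs without a peak.

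Per length, the levels had another order. In RIP, NORAD had 64.4 RPM per kb of peak, followed by the 3′ and 5′ MALAT1 peaks (26.5 and 15.6), PVT1 (6.80) and NEAT1 (6.72). In input, the 3′ MALAT1 peak was highest at 19.7 RPM per kb, followed by NORAD (17.1), the 5′ MALAT1 peak (4.60), PVT1 (1.33) and NEAT1 (0.56). The values of PVT1 and NEAT1 in RIP differed by less than rounding could make, and the 3′ MALAT1 peak changed places with NORAD between the fractions. In these libraries of many cells, RNA in fewer cells and less RNA per cell cannot be told apart.

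**Figure D2:**
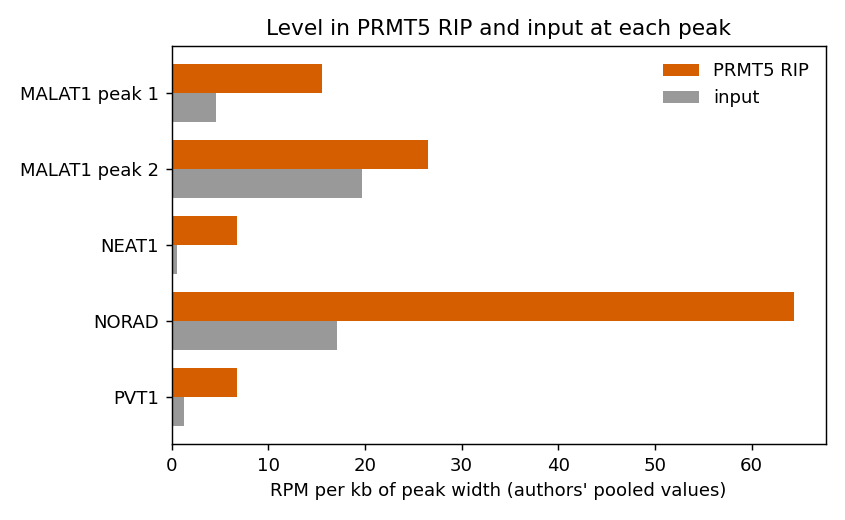
RPM per kb of peak width in PRMT5 RIP (orange) and input (grey) at each of the 5 peaks, as 1 pooled value each and so without error bars. NORAD stands highest in RIP at 64.4 RPM per kb, and NEAT1 lowest in input at 0.56.

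Whether these RNAs were abundant cannot be read from RPM summed over peaks, which also grows with the width and number of the peaks. Among the 507 genes of RefSeq's long noncoding class that had a peak, NORAD ranked 25 by summed RPM in RIP and 49 in input. MALAT1 ranked 130.5 (a tie) and 128, whereas NEAT1 ranked 360 and 450.5 and PVT1 408.5 and 427. The list gives levels at peaks alone, and the level of the same RNAs outside their peaks is not known from it. By ratio the ranks were 9 for NEAT1, 70 for PVT1, 118 for NORAD and 290 for MALAT1.

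Of the 5 peaks, 3 lay near the 5′ end. The midpoints of the NEAT1, NORAD and PVT1 peaks stood at 7.32%, 5.49% and 0.025% of the gene span, all within the first 10%, and those of MALAT1 at 33.0% and 85.5%. Across all peaks of genes whose strand RefSeq's start table gave, 27.2% (3780 of 13916) lay in the first 10%. For genes with a single peak the share was 43.5% (1065 of 2448), and for long noncoding genes with a single peak 37.0% (108 of 292). NEAT1, NORAD and PVT1 are all genes with a single peak. Of these, NORAD is in the start table. NEAT1 and PVT1 are not, took their strand from the peak, and so are not among the genes behind these shares. MALAT1 was the one RNA of the 8 with more than 1 peak, and its 5′ peak had the higher ratio. The same was so for 69.7% of all genes with 2 or more peaks (3244 of 4657).

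KCNQ1OT1 (chr11:2608328-2699994, 91667 nt), MIAT (chr22:26646429-26676478, 30050 nt), TUG1 (chr22:30969265-30979395, 10131 nt) and CYTOR (chr2:87455427-87521518, 66092 nt) had no listed peak on either strand, inside the gene or within 2000 nt of it. Since the list holds called peaks alone, their RPM in RIP and input is not known, and the absence of a peak does not show that the RNA was absent or not recovered. CYTOR has a near-identical copy further along chromosome 2, MIR4435-2HG, and reads of the 2 genes may be assigned to either. A peak of 25 nt with the identifier ENSG00000172965 lay at chr2:111495004-111495028 on the minus strand, 134 nt inside the 5′ edge of MIR4435-2HG, with 0.19 RPM in RIP and 0.07 RPM in input. Which of the copies gave those reads is uncertain.

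Other noncoding genes of the list give these values a frame. The 18 noncoding hosts of small nucleolar RNAs (the SNHG genes, GAS5, ZFAS1 and DANCR) had 63 peaks with a median log2 ratio of 0.72. Of these peaks, 33.3% were at least 2-fold above input. Their levels were higher, with a median of 8.22 RPM in RIP and 5.50 RPM in input. SNHG5 summed to 293.92 RPM in RIP and 156.37 RPM in input, GAS5 to 165.02 and 99.91, ZFAS1 to 72.84 and 76.23, and DANCR to 35.99 and 35.91. NORAD, with less input than any of these 4 genes, thus had a larger ratio (3.76) than GAS5 (1.65), SNHG5 (1.88), ZFAS1 (0.96) or DANCR (1.00). Some hosts with less input than NORAD came close to it or passed it, with SNHG30 at 4.69, SNHG21 at 3.58, SNHG11 at 3.52 and SNHG9 at 3.07. The other hosts with less input than NORAD were lower, with SNHG19 at 2.42, SNHG25 at 2.40, SNHG12 at 1.77, SNHG1 at 1.51 and SNHG16 at 1.32. The 237 antisense-named genes had 354 peaks with a median log2 ratio of 1.28, of which 64.4% were at least 2-fold above input and 74.0% lay across from an opposite-strand peak. No test of these differences was made, since each value is a single pooled one.

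The genes nearest to each RNA in summed RPM of both fractions, of 7269 named genes compared, were CCNDBP1 and SLC19A1 for MALAT1, PCMTD2 and TP53BP2 for NEAT1, CD2BP2 and SURF6 for NORAD, and TSFM and CCDC40 for PVT1. CCNDBP1 summed to 5.90 RPM in RIP and 2.68 RPM in input, and PCMTD2, on the low side of the list as NEAT1 was, to 0.80 and 0.07. CD2BP2 had 41.32 and 12.11 RPM, and TSFM 0.54 and 0.10.

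Peaks were also listed for most mRNAs of proteins known to work with these RNAs. The list holds only genes with a peak, so the share of all genes with one is not known. Of 14 such genes, 12 had a peak, and 6 of the 12 were at least 2-fold above input in summed RPM (50%, beside 62.3% of all identifiers), with ratios from 1.39 to 4.04 and a median log2 ratio of 1.05 beside 1.20 over all identifiers. Of the 9 paraspeckle genes, 8 had a peak and 3 of them (37.5%, beside the same 62.3%) reached 2-fold. NONO and SFPQ, which bind NEAT1 to build paraspeckles, had ratios of 1.39 (105.52 RPM in RIP and 76.12 RPM in input) and 1.99 (75.96 and 38.24). PSPC1, another protein of that family, had 2.22, and the cleavage factor subunits CPSF6 and NUDT21, which act in the choice between the NEAT1 isoforms, had 2.52 and 2.17. RBM14 had no listed peak. Of the genes tied to NORAD, PUM2 had no listed peak, RBMX had a ratio of 1.42, and KHDRBS1 (SAM68, an RNA-binding protein) had the largest ratio of the 12, at 4.04 (37.05 RPM in RIP and 9.18 RPM in input). For MALAT1, METTL16, which binds its triple helix, had 2.77, and ELAC2, the nuclease that trims the tRNA-like product, had 2.88.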

How the data were processed

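RNA of PHA-stimulated, UV-crosslinked Jurkat cells was sequenced from 2 PRMT5 RIP and 2 input libraries. The submitters' processing notes name fastp, HISAT2 and hg38. The peak caller, its threshold, the annotation and the pooling of replicates are not given in the sources used here. The authors deposited 1 peak list with pooled RPM values for each group, and with the peak caller's log2 fold change, p-value and FDR for RIP over input. RPM was read as given. Below 0.50 RPM the RIP values took 41 of 50 possible steps of 0.01, so whole reads and depth were not recovered, and no interval was computed.

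Peak starts were raised by 1 to count from 1. Each peak went to its first-listed identifier, without version. Identifiers were named from the study's supplementary symbols (849) or from the RefSeq gene of GRCh38.p14 touched on the same strand (6424). Both ways gave the same name for 784 of 786. Strand came from RefSeq's start table, or from the peak where a gene is not in it (NEAT1, PVT1). The log2 ratio was log2((RIP + 0.01) / (input + 0.01)), which understates changes of low peaks. "At least 2-fold" means a log2 ratio of 1 or more. Genes were described by summed RPM, and levels between genes by RPM per kb of peak.

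The 8 RNAs, the comparison, partner and marker lists and the 2 nearest genes to each RNA were fixed by rule, with earlier results of these data known, and 1 gene of the partner list is not reported here. Input ranges span 1.5-fold either side of a peak's input and were chosen after its values were seen. Scripts were checked on simulated data. A genome was not used here, so motifs in peaks were not counted. The alternatives covered the pseudocount, filters, thresholds, assignment and measure. Python 3.11.15, pandas 2.3.3, numpy 2.4.6 and matplotlib 3.10.9 were used.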

Additional observations from a re-analysis of the deposited data

How the results depend on the processing

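Of the 5 peaks, 4 were at least 2-fold above input, but 2 with a pseudocount of 1 (18.5% of the whole list) and 2 of 3 left among peaks with an input of at least 0.5 RPM (43.8%). By the caller's log2 fold change 5 of 5 were (91.2%), the 3′ MALAT1 peak included. The median log2 ratio of the peaks, 1.91, became 1.67 and 0.78 when the pseudocount was 0.1 and 1, 1.75 with the input filter, 2.24 without peaks that overlap the opposite strand (MALAT1 drops out) and 2.67 by the peak caller's log2 fold change. The median over genes of the summed log2 ratio, 2.08, became 1.75, 0.85, 1.53 and 2.24 under the first 4 of these. The whole-list median moved with the pseudocount too, to 0.89 and 0.46, and was 1.95 by the caller's measure. A larger pseudocount lowers low peaks most by construction: with 0.1 and 1, NEAT1 gave 2.47 and 0.78, PVT1 1.61 and 0.46, MALAT1 1.13 and 0.92, and NORAD 1.90 and 1.82, so that with 1 NORAD and not NEAT1 was highest. No result changed sign. Under the alternatives 50 values, the count of 5 peaks included, stayed near the main ones and 19 moved. The filters on FDR, width and number of identifiers left all 5 peaks in place, and so did the other assignments of peaks to genes. Values under these could not move. The input filter likewise left MALAT1 and NORAD as they were, and the opposite-strand filter left NEAT1, NORAD and PVT1. The tally of 50 against 19 is thus not a measure of stability. No paired analysis was possible because the list holds 1 pooled value per group, and for the same reason no replicate could be left out. Without peaks that overlap the opposite strand no RNA had 2 peaks left to compare. The motif count needs a genome and was not run.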

Other observations

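The genes with LINC symbols, long intergenic noncoding RNAs named by number and chosen here after their values were seen, numbered 29 with 52 peaks. Their median log2 ratio was 1.33, beside 1.10 for the whole list and 1.20 for peaks of RefSeq's long noncoding class. At least 2-fold above input were 65.4% of the peaks, beside 55.7% and 60% in those 2 sets. By summed RPM in RIP the highest was LINC02067, with 57.52 RPM in RIP and 23.51 RPM in input (ratio 2.45). These sums over its 2 peaks were above the 1 peak of NORAD in both fractions. The summed log2 ratio of LINC02067 was 1.29 and the median over its 2 peaks 0.65, so the 2 peaks differed in ratio. How the RPM divided between them is not given here. LINC02609 followed with 18.00 and 7.31 RPM (2.46), and LINC00339 with 7.66 and 4.72 RPM (1.62), above MALAT1 in both fractions.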
